A study of Mus musculus with 15 samples.

Results

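Sp1-only regions are genomic sites where FLAG-tagged Sp1 gave a peak in both of its libraries from MC3T3-E1 cells and where none of the other tagged factors of the series gave a region of its own. They were chosen by the peak calls themselves: peaks of the Sp1 lists were merged where they shared at least 1 bp, regions with a peak of both lists were kept, those over a peak of the GFP control were dropped, and those overlapping a region of Sp7, of the mutant Sp7mut or of Dlx5 in the same cells, or of Sp7 in primary osteoblasts, were set aside. Of 9103 regions with a peak of both Sp1 lists, 166 lay over a GFP control peak and 8937 were kept. Of these, 4583 (51.3%) were Sp1-only and 4354 were met by at least 1 other group. The 5 tagged groups held 47935 regions in all. Because the rule itself fixes these numbers and shares, they are given as a description with no test.

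Sp1 is a widely expressed zinc finger transcription factor of the Sp/KLF family that recognises GC-rich DNA (GC boxes), above all in promoters of broadly active genes. Sp7, also called Osterix, is a member of the same family that is needed for osteoblast formation, and Dlx5 is a homeodomain factor that recognises AT-rich DNA and takes part in skeletal development. With Sp1 beside Sp7 and Dlx5, the series allows a look at sites where Sp1 gave a shared region and the other tagged factors did not.

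MC3T3-E1 is an osteoblastic cell line of mouse calvaria. The cells, at passages 5 to 10, were grown for 1 week in medium with 10% serum, 10 ng/ml BMP2, 10 mM beta-glycerophosphate and 50 ug/ml of an ascorbic acid phosphate, and chromatin was pulled down with the FLAG M2 antibody. The groups there were Sp1, Sp7, Sp7mut and Dlx5, with 2 libraries each, and a GFP control with 1. The primary calvarial osteoblasts came from C57BL/6 mice at postnatal day 1, either with tagged Sp7 on both alleles (Sp7-BioFL/BioFL, 2 libraries) or wild-type (1 library). How the factors were introduced into the line, at what level, and what the mutation of Sp7mut is are not stated in the labels. The Sp1 and Sp7mut peaks were called against 1 input library and those of Sp7 and Dlx5 in the line against another, so input and factor cannot be told apart between these pairs.

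The lists differed in length, and the lists hold positions only. The Sp1 lists had 10549 and 28210 peaks, those of Sp7 18624 and 6063, of Sp7mut 10519 and 14830, of Dlx5 30234 and 39749, and of primary Sp7 2666 and 3212. The GFP control had 269 peaks and the wild-type control 183. No read counts are given, so the depth behind a region is unknown. Within each pair of lists of the other groups, the longer met more Sp1 regions, and a region counted for a group only where both its lists agreed, so the shorter list of each group set most of its length. No genome sequence or gene annotation of mm9, the build of the positions, was used here, so neither the bases nor the genes at these regions are given.

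By the rule, which needs both lists of a group, Sp1 regions were set apart from the Sp1-only class mainly by Sp7mut and Dlx5. Sp7 as the sole other group set hardly any apart. The groups differed in number of regions, with 5018 for Sp7, 8201 for Sp7mut and 23682 for Dlx5. Sp7 list 1 met 48.6% of all Sp1 regions and Sp7 list 2 17.6%. Sp7mut met 3267 Sp1 regions (36.6%, 95% Clopper-Pearson interval 35.6 to 37.6) and was the sole other group at 1228 of them. Dlx5 met 2728 (30.5%) and was alone at 866. Sp7 met 1524 (17.1%) but was alone at only 90, so that leaving Sp7 out of the rule would raise the class from 4583 to 4673 regions. Without Sp7mut in the rule it would hold 5811 regions (65.0% of Sp1 regions), and without Dlx5 5449 (61.0%). Primary Sp7 met 95 Sp1 regions (1.06%) and was the sole other group at 1. Intervals here cover counting error only.

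**Figure D1:**
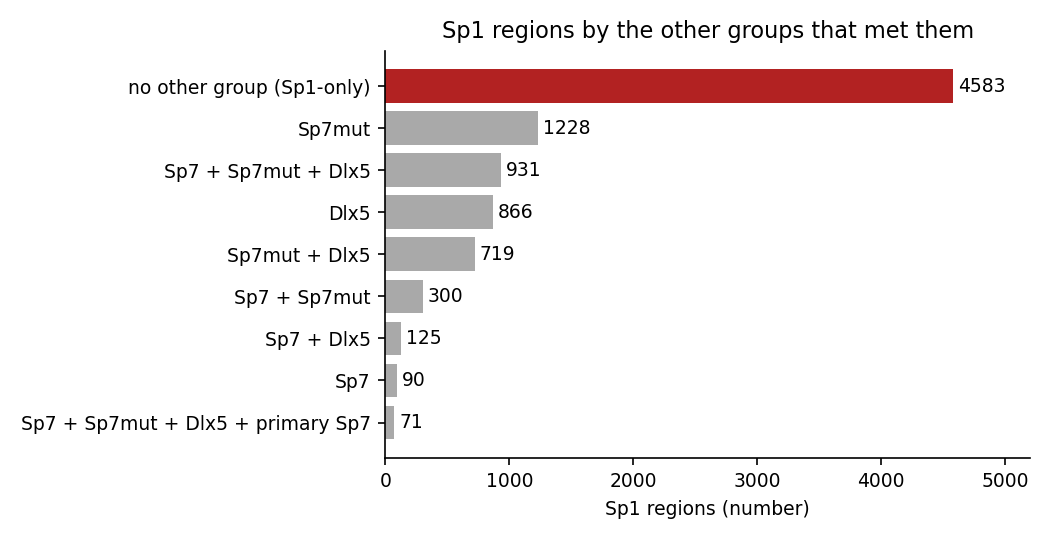
Number of Sp1 regions (x axis) by the set of other groups that met them (y axis, the 9 most frequent sets of 15). The 4583 Sp1-only regions form the longest bar, followed by the 1228 regions that Sp7mut alone also met.

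Seen across the series, Sp1 had a large share of regions of its own, while Sp7 and Sp7mut had few. By the same rule applied to each group, 51.3% of Sp1 regions, 65.8% of the 23682 Dlx5 regions, 28.9% of the 2097 primary Sp7 regions, 10.7% of the 8201 Sp7mut regions and 4.72% of the 5018 cell line Sp7 regions were met by no other group. The rule is uneven between groups, since Sp7, Sp7mut and primary Sp7 are forms of the same factor and stand among each other's other groups. Sp1 and Dlx5 had no second form here. Shares without these related forms were not computed, so the low shares of Sp7 and Sp7mut are not like for like with those of Sp1 and Dlx5. List length moves these shares too. When every group was kept to its first 5018 regions in row order (primary Sp7 has only 2097), 65.8% of Sp1 regions, 40.1% of Dlx5, 23.4% of Sp7 and 18.1% of Sp7mut regions were met by none of the others. Among the 4 factors of the line, Sp1 thus had the highest share at equal length and Dlx5 the highest over whole lists. No test between groups was made, since 2 lists on each side allow no exact permutation p (two-sided) under 0.333.

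The class was least frequent at the start of the Sp1 lists and more frequent further down. The rule behind the row order of the lists is not stated. In Sp1 list 1, 10 of the 82 regions within its first 100 rows were Sp1-only (12.2%, exact interval 6.01 to 21.3). In rows 101 to 500 the share was 29.2%, in rows 1001 to 2500 47.3%, and in rows 10001 to 10549 64.6% (59.5 to 69.6). Sp1 list 2 ran the same way, from 9 of 75 regions (12.0%) in the first 100 rows through 41.4% in rows 1001 to 2500 to 61.2% in rows 10001 to 28210. The 2 lists thus started and ended at like shares, with list 1 higher in rows 101 to 2500. Averaging the row position over both lists, the successive 20% parts of the Sp1 regions held 36.0%, 50.0%, 55.4%, 55.0% and 60.0% Sp1-only regions. Regions of the other groups with no partner were also rarer at the start of their lists, at 33.8% in the first and 77.3% in the last part for Dlx5 and 0.299% and 13.2% for cell line Sp7.

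**Figure D2:**
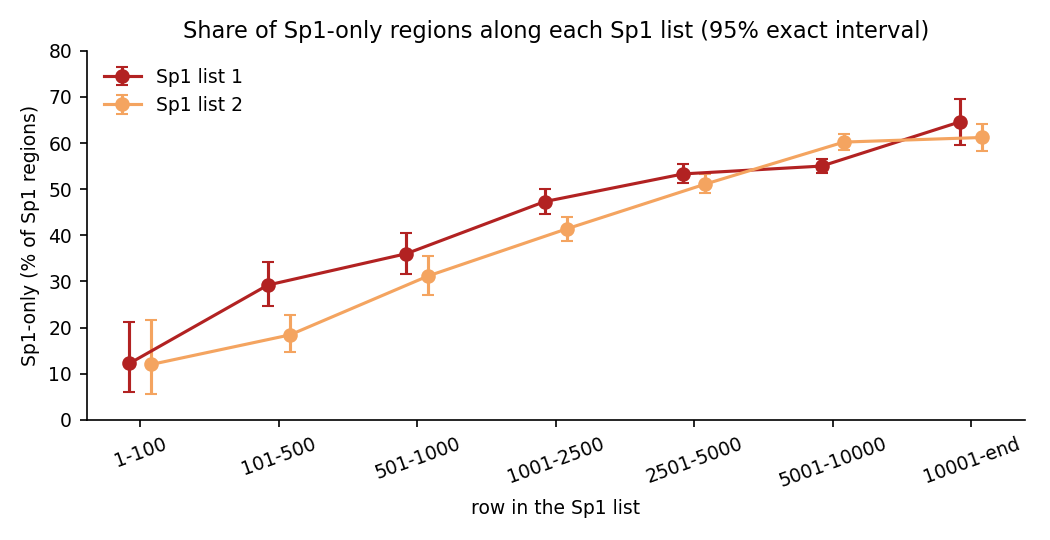
Share of Sp1 regions that were Sp1-only (y axis, %, with 95% Clopper-Pearson intervals) by row in each Sp1 list (x axis, unequal steps). Both lists climb from about 12% in the first 100 rows to above 60% in the last step.

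Both classes of Sp1 region looked alike in shape and differed in row position. Sp1-only regions had a median row percentile (0 is the start of the list) of 49.9 in list 1 and 19.9 in list 2, against 40.8 and 13.4 for the other Sp1 regions. The quartiles of Sp1-only regions were 27.8 and 74.5 in list 1, so the classes overlapped widely. Median peak widths were 158 bp in list 1 and 152 bp in list 2 for Sp1-only regions and 156 and 150 bp for the others. The median distance between the peak midpoints of the 2 lists was 25.5 bp in Sp1-only and 24.0 bp in other Sp1 regions. Between list 1 and list 2, rows correlated with a Spearman rho of 0.854 over the 4583 Sp1-only regions and 0.903 over the 4354 others. These values come from the lists that chose the regions and are descriptive, and regions of a list share its library.

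Not all Sp1-only regions were free of peaks of the other factors, since the rule asks for a shared region of a factor and not for a peak. A peak of at least 1 of the 8 single lists of the other groups met 2024 Sp1-only regions (44.2%), and 2559 (55.8%, or 28.6% of all Sp1 regions) were met by none. One list met 1232 of them, 2 lists 573, 3 lists 193, 4 lists 25 and 5 lists 1. Peaks of both lists of a factor met a few of them without a shared region of that factor there, at 44 regions for Sp7mut, 27 for Dlx5, 4 for Sp7 and 0 for primary Sp7. A peak of either list of Sp7mut met 1178 Sp1-only regions (25.7%), of Sp7 995 (21.7%, with list 1 at 980), of Dlx5 801 (17.5%) and of primary Sp7 13 (0.284%). Of all Sp1 regions, lists 1 and 2 met 41.9% and 50.0% for Sp7mut and 48.6% and 17.6% for Sp7. They met 36.6% and 39.2% for Dlx5 and 1.37% and 2.27% for primary Sp7. The rule had taken out the shared regions of each factor, so the order among Sp1-only regions describes what it left. By the criterion that no single list may hold a peak, 36.1% of Dlx5 regions, 28.6% of Sp1 regions, 14.6% of primary Sp7, 1.05% of Sp7mut and 0.458% of cell line Sp7 regions stood alone.

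One Sp7 library accounted for most of the Sp7 peaks at these sites. Sp7 list 1 held a peak at 980 Sp1-only regions (21.4%; 48.6% of all Sp1 regions), and Sp7 list 2 at 19 (0.415%; 17.6% of all). Peak numbers moved with this, since list 1 had 18624 peaks and list 2 6063. With Sp7 list 2 left out, so that a peak of list 1 alone made an Sp7 region, the class held 3616 regions (40.5%), and with list 1 left out 4574. Sp7mut list 1 met 364 Sp1-only regions (7.94%; 41.9% of all Sp1 regions) and list 2 858 (18.7%; 50.0% of all). Dlx5 list 1 met 296 (6.46%; 36.6% of all) and list 2 532 (11.6%; 39.2% of all). Primary Sp7 list 1 met 2 (0.0436%; 1.37% of all) and list 2 11 (0.240%; 2.27% of all). The rule used these lists, so the gap to all Sp1 regions follows from it. So does part of the gap between the Sp7 lists. Sp7 had 5018 shared regions against 6063 peaks in list 2, and Sp1 regions over shared regions were taken out. Few list 2 peaks were thus left to meet Sp1-only regions. The longer list of each pair met more Sp1-only regions, which the same removal favours.

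**Figure D3:**
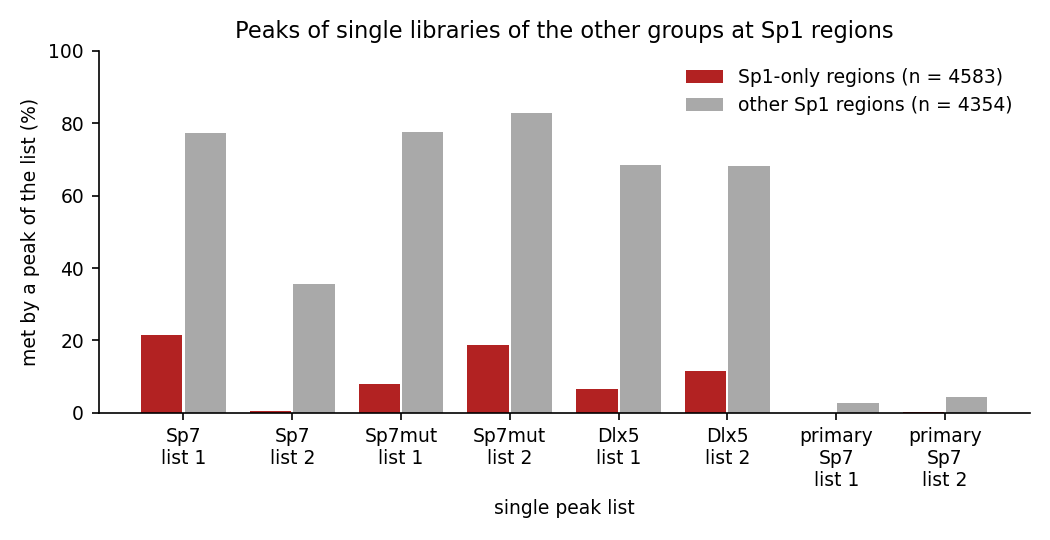
Share of Sp1-only (red) and other Sp1 regions (grey) met by a peak of each single list of the other groups (y axis, %). Sp7 list 1 met 21.4% and Sp7 list 2 0.415% of Sp1-only regions.

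Many Sp1-only regions in the first rows of the Sp1 lists met such peaks. Row numbers give the place in a list and not a known strength. The first in the averaged row order, chr2:148498225-148498366 (mm9), stood in row 6 of Sp1 list 1 and row 5 of list 2 and was 142 bp wide. It met a peak of Dlx5 list 2, and the nearest region of another group, of Dlx5, lay 17.3 kb away. The next, chr2:164704798-164704916, was in row 18 of both lists and met peaks of Sp7 list 1 and Sp7mut list 2. The third, chr2:11699203-11699385, in rows 35 and 60, met a peak of Sp7 list 1, with a primary Sp7 region 3.81 kb away. These 3 sites thus stood in early rows of both Sp1 lists, and each met a peak of 1 library, but not of both, of at least 1 other factor.

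The next 7 in the averaged order showed the same mixture. Peaks of single lists of Sp7, Sp7mut and Dlx5 all met chr1:36996484-36996764 (rows 44 and 47), where the nearest region of another group was 78.5 kb away. The same 3 factors had single peaks at chr5:136164866-136165054 (rows 51 and 69). Single peaks of Sp7 and Sp7mut met chr19:46380067-46380219 (rows 67 and 38) and chr6:125141718-125141859 (rows 82 and 135). At chr15:94420213-94420360 (rows 86 and 160) the single peak was of Sp7mut, and at chr11:74644319-74644471 (rows 119 and 80) there was 1 of Sp7mut and 1 of Dlx5. Of the 10, only chr5:24191654-24191831 (rows 98 and 106) was met by none of the 8 lists, and a Dlx5 region lay 103 bp from it. Among the first 100 Sp1-only regions, 38 were met by none of the 8 lists. Over successive 20% parts of the Sp1-only regions in row order this share was 46.2%, 57.4%, 55.3%, 59.3% and 60.9%.

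The rule removed every Sp1 region over a GFP control peak, and with control peaks kept in all groups the class held 4613 regions. The wild-type control of primary osteoblasts was not used to remove Sp1 regions, and 52.5% of its 183 peaks lay over GFP peaks. It met 8 Sp1-only regions (0.175%) and 14 others (0.322%), against 0.246% of all Sp1 regions. The share was lower in Sp1-only regions on 10 chromosomes and higher on 3, which did not pass an exact two-sided sign test over chromosomes 1 to 19 and X (p = 0.0923, 0.185 after Benjamini-Hochberg adjustment over 2 tests). Since chromosomes of 1 library are not replicates, the test describes these lists alone. Only 22 Sp1 regions met this control, so a class can hold none of them on a chromosome and count as lower there. The test takes both directions as equally likely, which with so few regions needs classes of like size. Keeping regions over GFP peaks brings back sites where the 2 controls overlap. That setting therefore cannot speak of regions clear of the GFP control. With regions over GFP peaks kept, the difference of -0.147 percentage points became -1.68 (lower on 20 chromosomes, exact sign test p = 1.91e-06, adjusted 3.81e-06). The difference was also larger without Sp7mut list 1 (-0.196) and without Dlx5 list 2 (-0.211). Without Sp7mut list 1 the classes were less equal in size, with 3765 Sp1-only of 8937 regions.

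Spacing to other Sp1 regions was not shown to differ between Sp1-only and other Sp1 regions. Another Sp1 region lay within 10 kb of 1063 Sp1-only regions (23.2%) and of 1156 others (26.6%), against 24.8% of all Sp1 regions. The share was lower in Sp1-only regions on 12 chromosomes and higher on 8 (exact two-sided sign test p = 0.503, adjusted 0.503). The direction rested on Sp1 list 1: with Sp1 list 2 alone, which gave 15677 Sp1-only of 27661 regions, the difference turned from -3.36 to 3.48 percentage points (higher on 19 chromosomes, adjusted p = 8.01e-05, exact). Of the 1250 neighbouring pairs of Sp1 regions within 10 kb, 322 joined 2 Sp1-only regions, 386 joined 2 others and 542 were mixed. The neighbour of an Sp1-only region was Sp1-only in 54.3% of cases, and that of another Sp1 region in 41.2%. Of all Sp1 regions 51.3% were Sp1-only, but these include regions with no neighbour within 10 kb. That is no like base for the pairs, since fewer Sp1-only (1063) than other regions (1156) had such a neighbour. The Sp1-only share of all Sp1 regions ran from 32.0% to 83.9% between chromosomes, and whether like regions lie together was not tested.

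Most Sp1-only regions had no close neighbour of their own class, a trait not particular to them. Another Sp1 region of any class lay within 10 kb of only 23.2% of Sp1-only and 26.6% of other Sp1 regions. Chains were not counted for the other Sp1 regions. With regions chained at 10 kb or less, 3946 stood by themselves, 270 chains held 2, 26 held 3, and 4 chains held more. The longest chain, of 6 regions over 22.3 kb at chr8:73278399-73300679, had its members between rows 3249 and 8128 of list 1 and rows 4217 and 16765 of list 2. Of its members, 5 were met by none of the 8 lists and 1, chr8:73293375-73293530, by single peaks of Sp7, Sp7mut and Dlx5. A chain of 5 lay over 22.9 kb at chr19:7044238-7067122. These are the highest counts of a large number of chains and are given as positions only.

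Most Sp1-only regions had a region of another factor within 100 kb, which is given as a description with no background share. The nearest region of any other group was a median of 15.7 kb away, within 1 kb for 687 Sp1-only regions (15.0%), within 10 kb for 1830 (39.9%) and within 100 kb for 4216 (92.0%). It was a Dlx5 region in 3259 cases (71.1%), an Sp7mut region in 854 (18.6%), an Sp7 region in 312 (6.81%) and a primary Sp7 region in 158 (3.45%). Median distances were 18956 bp to Dlx5, 51.0 kb to Sp7mut, 102 kb to Sp7 and 317 kb to primary Sp7. This order is that of the number of regions in each group, and distances were not set against it. The other groups together held 38998 regions, and no share at random positions was computed. The shares within 1, 10 and 100 kb thus cannot show whether Sp1-only regions lie closer to other factors than random positions do. Requiring more than 1 kb to any other group left 3896 regions (43.6%).

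**Figure D4:**
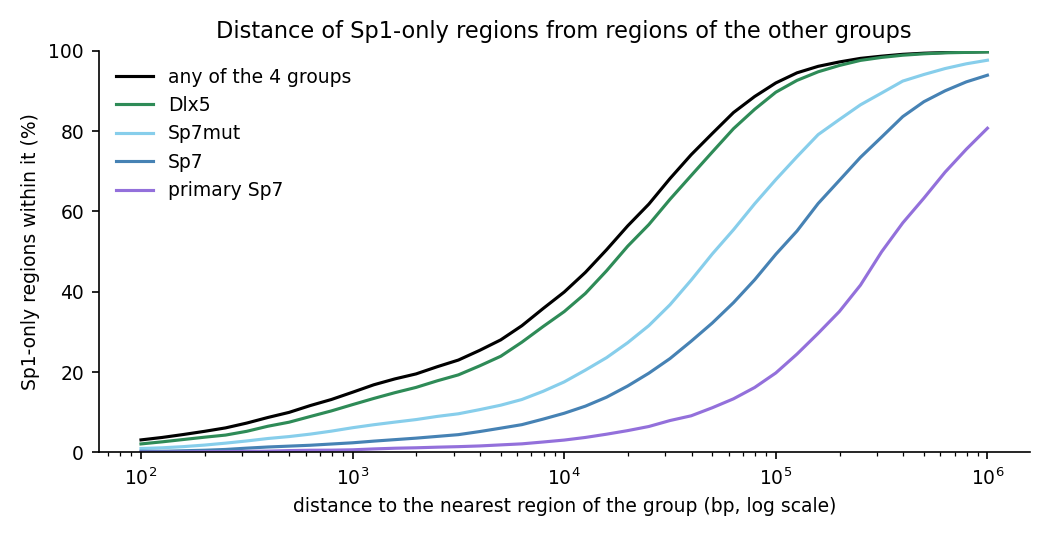
Share of Sp1-only regions (y axis, %) with a region of each other group within a given distance (x axis, bp, log scale), and of any of the 4 groups (black). At 10 kb the black curve stands at 39.9%, Dlx5 at 35.1% and primary Sp7 at 3.08%.

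Few regions stood at the edge of the rule. Just inside it, chr17:83913826-83914003 touched an Sp7mut region, and chr19:9064354-9064578 and chrX:7476429-7476794 each touched a Dlx5 region, with 0 bp in between and no shared base. Just outside it, chr17:57136665-57136799 and chr17:87569948-87570091 shared 1 bp with a Dlx5 region and chr19:53403788-53404048 1 bp with an Sp7mut region. An overlap of 10 bp or less kept 25 regions out. The 5 widest Sp1-only regions spanned 936 to 1042 bp, led by chr9:115219037-115220078 in rows 2432 and 2272, and 4 of the 5 met at least 1 peak of another factor. One of these, chr17:29231123-29232065, met peaks of both Sp7 lists without overlapping a shared Sp7 region. Farthest from any other group were chrX:82819156-82819331, chrX:83021756-83022298 and chrX:120217004-120217199, at 7491, 7288 and 6149 kb.

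The share of Sp1 regions that were Sp1-only differed widely between chromosomes. It was lowest on chromosome 6, at 174 of 543 regions (32.0%, exact interval 28.1 to 36.2), and highest on X, at 99 of 118 (83.9%, 76.0 to 90.0). Chromosomes 17, 11 and 2 followed at the low end with 41.6%, 44.8% and 45.1%, and chromosomes 13, 18 and 7 at the high end with 68.5%, 66.7% and 64.8%. The intervals of chromosomes 6 and X overlapped that of no other chromosome, and from chromosome 17 to 13 each interval overlapped that of its neighbours in this order. Single libraries gave the same ends: in each of the 4 pairings of 1 Sp1 list with 1 list of every other group, chromosome 6 was lowest (24.3 to 32.1%) and X highest (71.0 to 81.1%). These pairings, and the count that follows, use the lists of the rule and are no separate support. Counting only regions met by none of the 8 lists, the ends were again chromosome 6 (14.5%) and X (61.0%). In the earlier 50% of the regions in row order chromosome 6 was lowest at 27.5%, and chromosome 18 was highest at 65.5%, with X at 62.5% of only 24 regions. In the later 50% X stood at 89.4% and chromosome 6 at 37.8%.

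**Figure D5:**
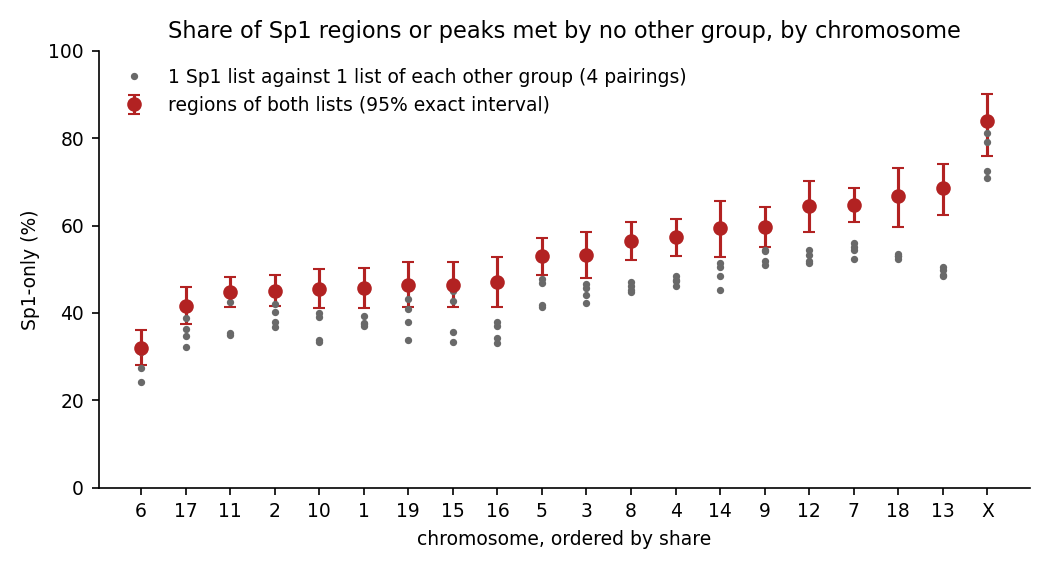
Share of Sp1 regions that were Sp1-only (y axis, %) on each chromosome (x axis, ordered by share), with 95% Clopper-Pearson intervals in red. Grey points give the share of peaks of 1 Sp1 list met by no peak of 1 list of each other group, in 4 pairings. Chromosome 6 is lowest and X highest in red and in grey.

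X stood out in the lists themselves, though it held the fewest Sp1-only regions per Mb of any chromosome (0.617). The other Sp1 regions stood at 0.118 per Mb there. Of the peaks of the Sp1 libraries, 1.28% and 1.51% lay on X. The shares were 0.591% and 0.429% for Sp7, 0.361% and 0.391% for Sp7mut, 0.824% and 0.948% for Dlx5 and 0.788% and 0.841% for primary Sp7. Both Sp1 lists thus lay above all 8 others, by more than the spread within any pair. The control lists had 1.49% (GFP, 4 peaks) and 1.64% (wild-type, 3 peaks) on X, near the Sp1 values, and whether background takes part in the Sp1 values on X was not tested. On chromosome 6 the order was the other way round among the tagged lists of the line, with 6.39% and 6.74% of Sp1 peaks, 8.32% and 10.2% of Sp7, 8.20% and 8.06% of Sp7mut and 7.75% and 7.56% of Dlx5 peaks. Primary Sp7 had 5.51% and 4.98% there, the GFP control 11.5% and the wild-type control 5.46%.

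Sp1-only regions were densest on gene-rich autosomes. Over the 19 autosomes, the density of Sp1-only regions went up with that of protein-coding genes (Pearson r = 0.891, Spearman rho = 0.874), from 1.18 regions per Mb on chromosome 1 (6.25 genes per Mb) to 3.24 on chromosome 11 (13.6 genes per Mb). The other Sp1 regions did so as well, with r = 0.709 and rho = 0.665. Without chromosomes 7 and 11, whose gene density lay farthest from the median, Pearson's r was 0.860 for Sp1-only and 0.829 for the others. Chromosome 7, with 13.6 genes per Mb, held 2.58 Sp1-only and 1.40 other Sp1 regions per Mb, against 3.24 and 3.99 on chromosome 11. Genes were counted by chromosome in GRCm38.p6, with none of its coordinates used. These are correlations across chromosomes of the same lists, given as descriptions with no test.

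The Sp1-only share, unlike the density, had a Pearson correlation of only -0.201 with genes per Mb over the 19 autosomes, given as a description. With regions per Mb of the other groups it was -0.838 for cell line Sp7, -0.800 for Dlx5, -0.755 for Sp7mut and -0.122 for primary Sp7. The rule takes out regions that these groups met, so these values are descriptions too. Sp7 itself was spread differently in the line and in primary cells: chromosome 6 held 4.29 cell line Sp7 regions per primary Sp7 region, chromosome 17 3.93, chromosome 18 1.16 and chromosome 13 1.13. Over the 19 autosomes this ratio had a Pearson correlation of -0.851 with the Sp1-only share. Both Sp7 groups belong to the rule, so the ratio and its correlation are descriptions. On X the ratio was 1.62.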

How the data were processed

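The data are FLAG ChIP-seq peak lists of 12 of 15 samples, and the other 3, input DNA, were not analysed here. Each deposited list holds 3 columns, chromosome, start and end, made by the authors per library. Per the submitters' processing notes, positions refer to mm9, and what aligned the reads and called the peaks is not given in the sources used here. The input library of each list was taken from the labels, and that of the GFP control is not stated.

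Groups and replicate numbers came from sample titles. The labels do not say whether replicates were separate cultures, so their spread may be technical. Positions were read as BED (start from 0) and are printed 1-based. The members, region classes and tests were chosen with earlier results of these data known. Intervals are 95% Clopper-Pearson. Measures that the rule did not use were compared by a two-sided exact sign test over 20 chromosomes, adjusted by Benjamini-Hochberg over 2 tests. Named regions were the 10 first Sp1-only regions by mean row percentile of both lists, the 5 widest, 3 nearest to and 3 farthest from another group, the 3 non-members with the smallest overlap, and the longest chain at 10 kb. Planned tests of GC content, CpG, GC boxes and transcription starts, and the gene lists fixed for them, were not run because they need mm9 sequence or annotation, which was not used here. Gene numbers per chromosome (21627 protein-coding genes) are from a table of GRCm38.p6, and chromosome length is the span of all peaks. Alternatives were a 50% overlap, controls kept, lists left out, a peak in any single list, a 1 kb gap, and the earlier or wider 50% of each list. After seeing the data, touching peaks, equal length and each list of the other groups left out were added. The code was tested on simulated lists. Python 3.11.15, numpy 2.4.6, pandas 2.3.3 and scipy 1.17.1 were used.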

Additional observations from a re-analysis of the deposited data

How the results depend on the processing

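The number of Sp1-only regions, 4583, stayed within 1.5 times under 16 of 20 settings and left that range when any single list removed a region (2559), with the wider 50% of peaks (1967), and with Sp1 list 2 alone. Leaving out 1 list, or 1 list of every group, gave 3616 to 15677 regions, the highest without Sp1 list 1. The share of 51.3% moved by more than the spread of the 2 Sp1 lists (SD 2.28 percentage points) under 14 settings: 72.1% with an overlap of 50% of both peaks, 28.6% when any single list removed a region, 43.6% beyond 1 kb, 69.3% in the earlier 50% of rows, 73.8% in the wider 50% of peaks and 65.8% at equal length, and 40.5 to 56.7% when lists were left out. Counting touching peaks as overlapping gave 4579 of 8942 regions. The difference in neighbours within 10 kb (-3.36 percentage points) ranged from -3.80 to 3.48 when lists were left out, turning positive without list 1 of Sp1 and without list 1 of every group (2.47). It kept its sign under the other 17 settings in which it was computed, and was not computed for regions beyond 1 kb of any other group, the earlier 50% of rows or the wider 50% of peaks. The difference in overlap with the wild-type control (-0.147) passed the test with control peaks kept (-1.68), a setting that brings back regions over GFP peaks. It also passed when any single list removed a region (-0.181, adjusted p = 0.0449, exact). There the classes were unequal, with 2559 Sp1-only of 8937 regions. With few regions over this control, the smaller class can hold none on a chromosome and count as lower, so this pass cannot decide between the classes. When lists were left out, the difference in overlap with this control ranged from -0.218 (without list 2 of every group) to -0.0231 (without Sp1 list 1). The correlation with gene density, 0.891, was 0.860 without 2 autosomes and 0.898 to 0.903 with 1 Sp1 list. The causes were not tested. No paired analysis was possible because the results come from regions that need both lists of a group, not from a fit across libraries. Depth is unknown, so a missing peak does not show that a factor was absent.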
